A study of Mus musculus with 8 samples.

Results

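Serpins are a large family of protease inhibitors, and in the renal cortex of SPAK KO mice 3 of its genes, Serpina1d, Serpina1f and Serpinb1a, were higher than in wild-type littermates. The SPAK KO arrays were so alike that their spread may be technical, and the Serpina1d signal may include RNA of near copies of that gene. The family was taken here as every gene whose symbol begins with Serpin, a clade letter from a to i and a number, and which had a probe set annotated with that single symbol. Of 19938 genes measured in this way, 48 were Serpin genes, each with 1 probe set, and a further 5 probe sets carried several Serpin symbols at once. Serpina4-ps1, a pseudogene, is 1 of the 48. RefSeq lists 69 genes under such symbols, and the other 21 are not analysed here as single genes.

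The study measured total RNA of dissected kidney cortex on 1-colour Affymetrix arrays, and the labels give each array a mouse of its own. The 4 SPAK KO mice carried a disrupted Stk39, the gene of the kinase SPAK that activates the NaCl cotransporter of the distal convoluted tubule. The 4 WT mice were their littermates. All were C57Bl6J males of 10 weeks with free access to water and to feed of 0.32% NaCl and 1% KCl. The labels do not describe the disrupted allele, and bulk cortex mixes tubules, glomeruli, vessels and blood cells, so more cells of a type and more RNA per cell cannot be told apart. The stated design sought genes that act together against salt loss when SPAK is missing.

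A typical serpin offers a protease an exposed loop as bait, and cleavage of that loop springs the serpin into a new shape that traps the enzyme. Members of clade A are mostly secreted, largely by the liver, and include α1-antitrypsin, the chief inhibitor of neutrophil elastase. Members of clade B lack a classical signal peptide and act mostly inside cells. Some serpins, such as the hormone carriers and the collagen chaperone Serpinh1, inhibit no protease.

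Values are log2 RMA expression values, and each difference is the SPAK KO mean less the WT mean, given with limma's moderated standard error (SE). Called genes are those with a limma p under 0.05 after Benjamini-Hochberg adjustment over all 19938 genes. Arrays within a group differed to unequal degrees. Of 6297 bright genes (mean over 8), any 2 SPAK KO arrays were more than 0.4 apart, beyond the pair's median shift, for only 1 to 10. WT 2 and WT 3 were that far apart for 3 genes, and the 5 remaining WT pairs for 119 to 228. WT 2 and WT 3 were therefore counted as 1 sample in means ± SD (n = 3), SPAK KO levels are given for each array without SD, and p-values measure a spread between SPAK KO arrays that may be technical. Whether these arrays came from separate mice, as labelled, or from repeat arrays of the same RNA was not tested. The median over all probe sets was 6.09 to 6.12 on the SPAK KO arrays and 6.13 to 6.19 on the WT arrays, so the groups were apart in this measure too. Over the 19938 genes fitted the medians overlapped, with 6.71 to 6.73 on the SPAK KO arrays and 6.71 to 6.75 on the WT arrays. Stk39 itself read 7.21, 6.98, 6.79 and 7.10 on SPAK KO arrays 1 to 4, below all WT arrays (8.11 to 8.60).

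The α1-antitrypsin genes are shown first by sequence, because several of them are near copies and share probe sets. In the mouse, α1-antitrypsin is encoded by a row of duplicated genes on chromosome 12. Around the start site, Serpina1a, Serpina1b, Serpina1c, Serpina1d and Serpina1e carry nearly the same DNA. The motif GTTAAT begins at position -21 from the start site in Serpina1a, -26 in Serpina1b, -27 in Serpina1c, -16 in Serpina1d and -78 in Serpina1e, so the windows of the first 4 run past the start and that of Serpina1e ends before it. The 120 bases around the motif GTTAAT are printed from RefSeq for GRCm38.p6, minus strand, with the motif in capitals. GTTAAT is an arm of the palindrome that HNF1, a transcription factor of liver and proximal tubule, is known to bind.
Serpina1a, chr12:103863581-103863700: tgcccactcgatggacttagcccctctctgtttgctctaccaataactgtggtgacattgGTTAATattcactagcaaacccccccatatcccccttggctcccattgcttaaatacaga
Serpina1b, chr12:103738156-103738275: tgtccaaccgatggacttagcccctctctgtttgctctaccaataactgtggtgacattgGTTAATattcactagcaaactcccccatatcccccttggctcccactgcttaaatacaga
Serpina1c, chr12:103904918-103905037: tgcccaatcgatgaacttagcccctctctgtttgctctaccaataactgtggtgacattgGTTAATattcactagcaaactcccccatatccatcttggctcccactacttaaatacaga
Serpina1d, chr12:103773590-103773709: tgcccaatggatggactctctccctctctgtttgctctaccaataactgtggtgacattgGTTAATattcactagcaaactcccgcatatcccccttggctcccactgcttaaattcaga
Serpina1e, chr12:103956916-103957035: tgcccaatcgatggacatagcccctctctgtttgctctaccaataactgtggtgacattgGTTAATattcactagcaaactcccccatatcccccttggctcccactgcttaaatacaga

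The 10 pairs among these windows matched at 109 to 117 of 120 bases. Serpina1f, the next gene of the row, was unlike them. Its 300 bases, from 250 before to 50 after the start, shared no run longer than 9 bases with any of the other promoters, while the others shared runs of 59 to 119 bases with each other. They are printed because this gene was also called higher and lacks the shared block.
Serpina1f, GRCm38.p6, minus strand, chr12:103695480-103695779: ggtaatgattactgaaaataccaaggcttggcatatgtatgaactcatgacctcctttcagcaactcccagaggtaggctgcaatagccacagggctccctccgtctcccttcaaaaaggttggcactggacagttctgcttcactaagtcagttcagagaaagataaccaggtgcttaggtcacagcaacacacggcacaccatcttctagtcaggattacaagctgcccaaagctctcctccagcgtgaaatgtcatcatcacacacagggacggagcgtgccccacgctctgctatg

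Searched on both strands, GTTAAT was in 5 of these 6 promoters and in 7.1% of 32851 promoters of the same length. AGAACA, an arm of the site bound by steroid hormone receptors, was also in 5 of the 6 and in 19% of all promoters, and TATAAA was in 0 of the 6 and in 13.6%. Serpina1a to Serpina1e are near copies, so their matches are not separate observations, and these counts do not measure enrichment. Such matches describe letters and say nothing of binding.

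Serpina1d, 1 of the α1-antitrypsin genes, had the largest difference of the family. It read 9.35, 9.14, 9.11 and 9.18 on SPAK KO arrays 1 to 4, against 8.08, 7.35, 7.37 and 7.96 on WT arrays 1 to 4. All SPAK KO arrays lay above all WT arrays, and among the WT arrays 1 and 4 were the higher ones. The WT mean was 7.80 ± 0.39 (SD, n = 3), and the difference was 1.502 ± 0.16 (SE, 2.83-fold; limma adjusted p = 0.00218). The gap between the lowest SPAK KO array and the highest WT array was 1.02, wider than the whole spread of 0.74 among WT arrays.

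Serpina1f, a relative that stands beside them on the chromosome, rose as well. Its values were 10.10, 10.11, 10.05 and 10.06 on the SPAK KO arrays, against 9.49, 9.16, 9.09 and 9.32 on the WT arrays. The SPAK KO arrays were within 0.06 of each other, and again no WT array reached them. The difference was 0.81 ± 0.08 (SE, 1.76-fold; limma adjusted p = 0.00161), with 9.31 ± 0.18 in WT (SD, n = 3).

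Serpina1c did not pass. It read 5.84, 5.40, 5.53 and 5.96 on the SPAK KO arrays, against 5.70, 4.66, 4.39 and 5.30 on the WT arrays. WT 1 lay within the SPAK KO values, so the groups overlapped. The difference of 0.67 ± 0.25 (SE) had a 95% interval of 0.11 to 1.23 and a limma adjusted p of 0.192.

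Serpina1a, Serpina1b and Serpina1e had no probe set of their own, but 2 probe sets are annotated to all 5 of Serpina1a to Serpina1e. In the fit over all 35556 probe sets both were higher, where 0.712% of probe sets were called and 0.427% were called higher. Probe set 10402399 read 8.92, 8.69, 8.72 and 8.80 on the SPAK KO arrays, against 7.43, 6.61, 6.61 and 7.35 on the WT arrays. Its difference was 1.78 ± 0.20 (SE, 3.44-fold; limma adjusted p = 0.0148). Probe set 10402409 read 10.39, 10.12, 10.16 and 10.22 against 8.97, 8.08, 8.005 and 8.94 in WT, a difference of 1.72 ± 0.23 (SE, 3.30-fold; limma adjusted p = 0.0245). Both followed the order seen for Serpina1d, with the 4 SPAK KO arrays on top, then WT 1 and WT 4, then WT 2 and WT 3. These signals cannot be divided among the 5 genes, and RNA of the other copies may also bind the probes named for Serpina1c or Serpina1d. When 1 array was left out, the difference stayed between 1.65 and 1.92 for probe set 10402399 and between 1.56 and 1.88 for probe set 10402409. Both lost the call without any single SPAK KO array (limma adjusted p of 0.0518 to 0.0684 for probe set 10402399 and 0.0813 to 0.0919 for probe set 10402409), and probe set 10402409 also without WT 2 (0.0671) or WT 3 (0.0539). Serpina1d and Serpina1f, adjusted over the smaller number of genes, passed whichever of the 8 arrays was left out, and in the fit over all probe sets their limma adjusted p was 0.0159 and 0.0121.

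**Figure D1:**
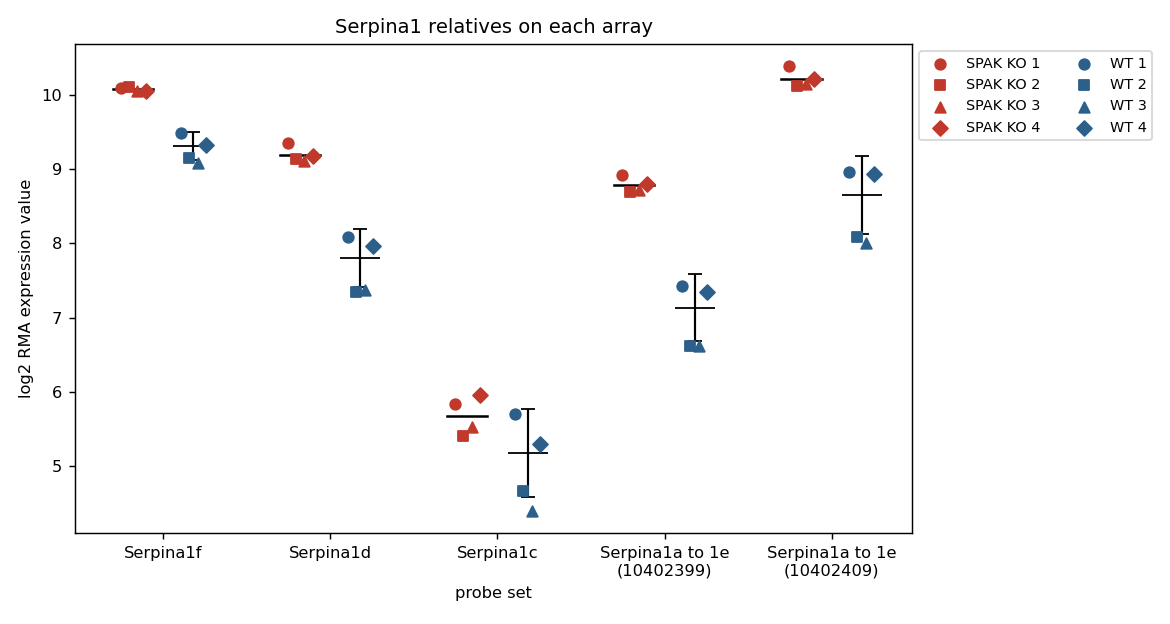
Log2 RMA expression value (vertical axis) of the 5 probe sets of the Serpina1 relatives, with SPAK KO arrays in red on the left and WT arrays in blue on the right of each. Horizontal bars are the mean of the 4 SPAK KO arrays and the WT mean ± SD (n = 3, WT 2 and WT 3 counted once). The groups overlap only for Serpina1c, and in all 5 probe sets WT 1 and WT 4 lie above WT 2 and WT 3.

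When agreeing arrays were merged, 1 SPAK KO sample was set against 3 WT samples and was assumed to vary as they do. The differences were then 1.39 for Serpina1d, 0.77 for Serpina1f, 0.51 for Serpina1c and 1.65 and 1.57 for the shared probe sets. None of them passed (limma adjusted p = 1). That fit called 0 of 19938 genes, with 618 at an unadjusted p under 0.05, 4 of them Serpin genes.

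Over the whole family, 3 of 48 genes were called higher, Serpina1d, Serpina1f and Serpinb1a, where 1.39% of all genes were, and 0 of 48 were called lower, where 0.682% were. With each array centred on the median of all probe sets, all genes split into 673 higher and 88 lower, instead of 278 and 136, and 4 Serpin genes were higher and 0 lower. At an unadjusted p under 0.05 there were 9 Serpin genes, 5 higher and 4 lower, where 19.1% of all genes passed that looser line. All SPAK KO arrays lay above all WT arrays for 4 of 48 genes, against 6.9% of all genes, and below them for 1 of 48, against 5.71%. The family's median difference was -0.03, and that of all genes -0.01, but the sign of the family's median was not settled, since that centring made it 0.02. Of the 48 differences, 21 were above 0, and 45.8% of all genes were. Most of the family was dim in the cortex. A mean under 6 was found for 36 members, and all 3 called genes were among the 12 brighter ones, where 2.92% of all genes that bright were called. The values carry no detection call, so for a dim probe set a small difference may have been hidden below what the array resolves.

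**Figure D2:**
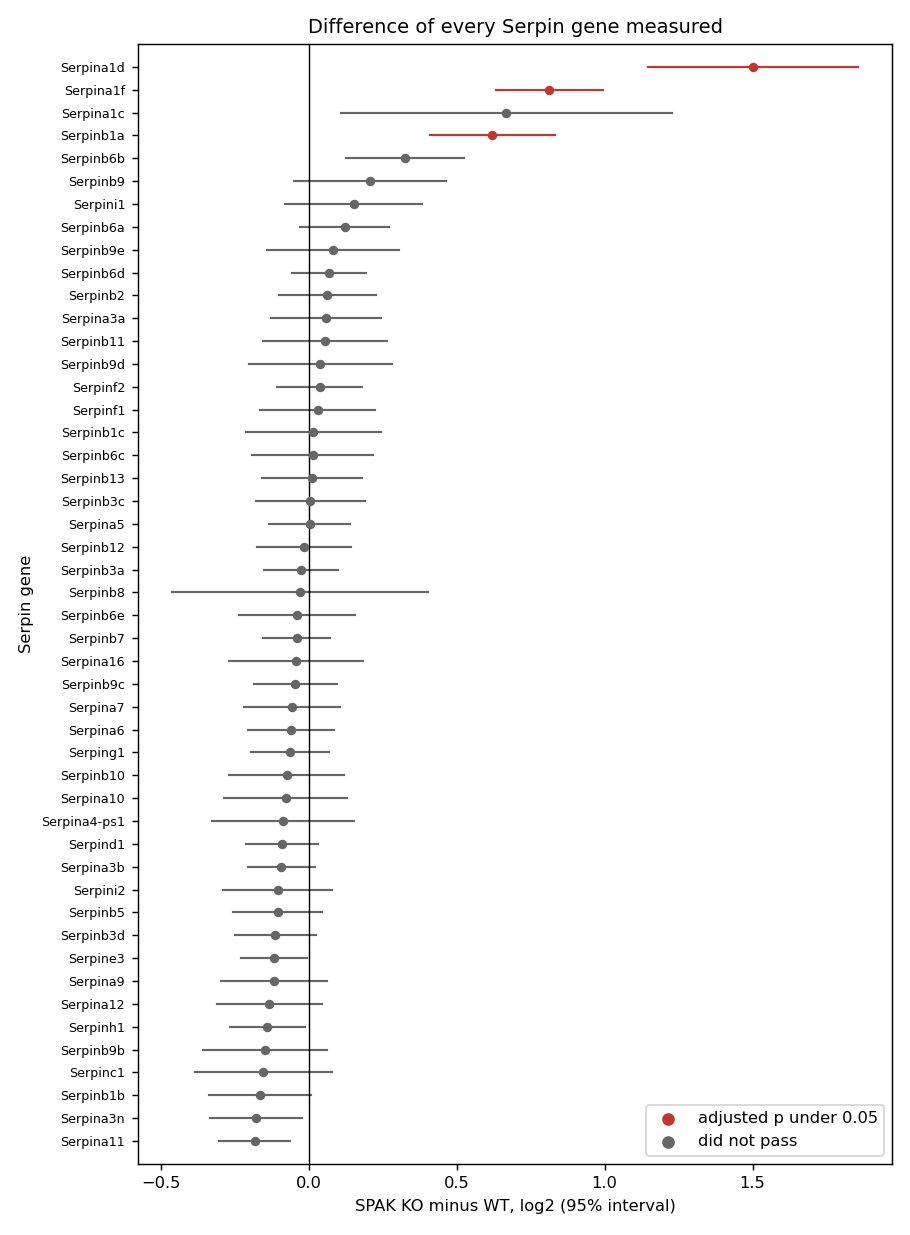
SPAK KO minus WT difference on the log2 scale (horizontal axis) of the 48 Serpin genes, sorted by size, with the 95% interval from limma. Red marks the 3 genes with an adjusted p under 0.05, at 0.62, 0.81 and 1.502, and 45 grey genes did not pass, 44 of them between -0.18 and 0.33 and Serpina1c at 0.67.

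Serpina1f and Serpina1d lie in the same row of genes, with Serpina1b between them, and Serpinb1a is on chromosome 13. RefSeq places 28 Serpin genes in a row on chromosome 12, of which 14 were measured alone. In that order Serpina10, Serpina6 and Serpina16 come first, then Serpina1f and the α1-antitrypsin copies, then Serpina11, Serpina9, Serpina12 and the rest. Serpina10, the inhibitor that works with protein Z against coagulation factor Xa, differed by -0.08 ± 0.09 (SE, limma adjusted p = 0.682). Serpina6, the corticosteroid-binding globulin, differed by -0.06 ± 0.07 and Serpina16 by -0.04 ± 0.10 (SE). On the far side, Serpina11 was the lowest of the family. It read 4.79, 4.71, 4.78 and 4.65 on the SPAK KO arrays, against 4.98, 4.95, 4.87 and 4.87 on the WT arrays. Its groups did not overlap, but the difference of -0.18 ± 0.05 (SE) did not pass (limma adjusted p = 0.112), and its mean was under 6. None of the 12 clade A genes outside Serpina1a to Serpina1f was called (limma adjusted p of 0.112 or more), where 2.08% of all genes were. Their differences lay between -0.18 and 0.06. An unadjusted limma p under 0.05 was found for 2 of them, where 19.1% of all genes had one. All 12 had a mean under 6, so a small difference in them may have been hidden.

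**Figure D3:**
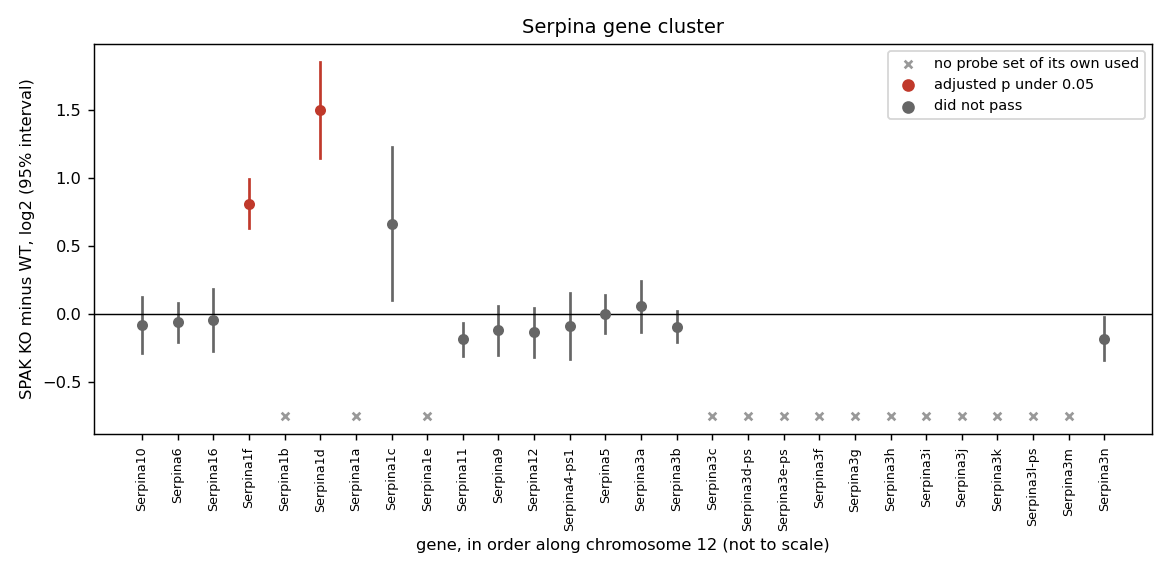
SPAK KO minus WT difference on the log2 scale with its 95% interval (vertical axis) for the Serpin genes of chromosome 12, in their order along the chromosome and not to scale. Red genes had an adjusted p under 0.05, grey genes did not, and crosses mark genes with no probe set of their own. Serpina1f, Serpina1d and Serpina1c stand above 0 at 0.81, 1.502 and 0.67, and their measured neighbours on either side lie between -0.18 and -0.04. Those neighbours all had a mean under 6.

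Other clade A genes include the antichymotrypsin-like Serpina3 group and carriers and inhibitors of plasma. Serpina3n, an inhibitor that rises in liver and brain in inflammation, read 4.60, 4.58, 4.61 and 4.38 on the SPAK KO arrays, against 4.61, 4.81, 4.66 and 4.797 on the WT arrays. WT 1 fell among the SPAK KO values, and the difference of -0.18 ± 0.07 (SE) did not pass (limma adjusted p = 0.21). Serpina3a and Serpina3b differed by 0.06 ± 0.08 and -0.09 ± 0.05 (SE). Serpina5, the protein C inhibitor, differed by 0.003 ± 0.06 (SE), with a 95% interval of -0.13 to 0.14. Serpina7, the thyroxine-binding globulin, differed by -0.06 ± 0.07 (SE), with an interval of -0.22 to 0.11.

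Among the inhibitors inside cells, Serpinb1a, which blocks neutrophil elastase and cathepsin G, was higher. It read 8.59, 8.46, 8.47 and 8.54 on the SPAK KO arrays, against 7.63, 7.93, 7.88 and 8.15 on the WT arrays. The groups did not overlap, WT 1 was the lowest array and WT 4 the highest of the WT group. The difference was 0.62 ± 0.10 (SE, 1.54-fold; limma adjusted p = 0.0106), with 7.89 ± 0.26 in WT (SD, n = 3). It passed whichever array was left out, but narrowly without SPAK KO 1 (limma adjusted p = 0.048). In the fit over all probe sets its limma adjusted p was 0.045. The nearest copies, Serpinb1b and Serpinb1c, read under 4 on every array and differed by -0.17 ± 0.08 and 0.02 ± 0.10 (SE). Both of these were named after their values were seen.

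Serpinb6b, a granzyme A inhibitor, came closest of the rest to the threshold. It read 8.07, 7.78, 7.92 and 7.83 on the SPAK KO arrays, against 7.58, 7.35, 7.67 and 7.71 on the WT arrays. Every SPAK KO array was above every WT array, by as little as 0.07, and the difference was 0.33 ± 0.09 (SE; limma adjusted p = 0.0976). Serpinb6a, a broad inhibitor of cytosolic and granule proteases, ranged from 6.92 to 7.01 on the SPAK KO arrays and from 6.68 to 6.95 on the WT arrays. Its difference of 0.12 ± 0.07 (SE) did not pass (limma adjusted p = 0.356). Serpinb9, which protects cells from granzyme B, read 8.30, 8.13, 8.16 and 8.40 on the SPAK KO arrays, against 7.67, 8.10, 8.21 and 8.19 on the WT arrays. WT 1 alone was low, and the difference was 0.21 ± 0.12 (SE; limma adjusted p = 0.355). Of 24 clade B genes 1 was called higher, where 1.39% of all genes were. Another 20 not named by the rule lay between -0.17 and 0.08, 19 of them with a mean under 6. The 3 probe sets shared by Serpinb9d, Serpinb9e, Serpinb9f and Serpinb9g differed by -0.02, 0.02 and 0.06 and did not pass in the fit over all probe sets.

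**Figure D4:**
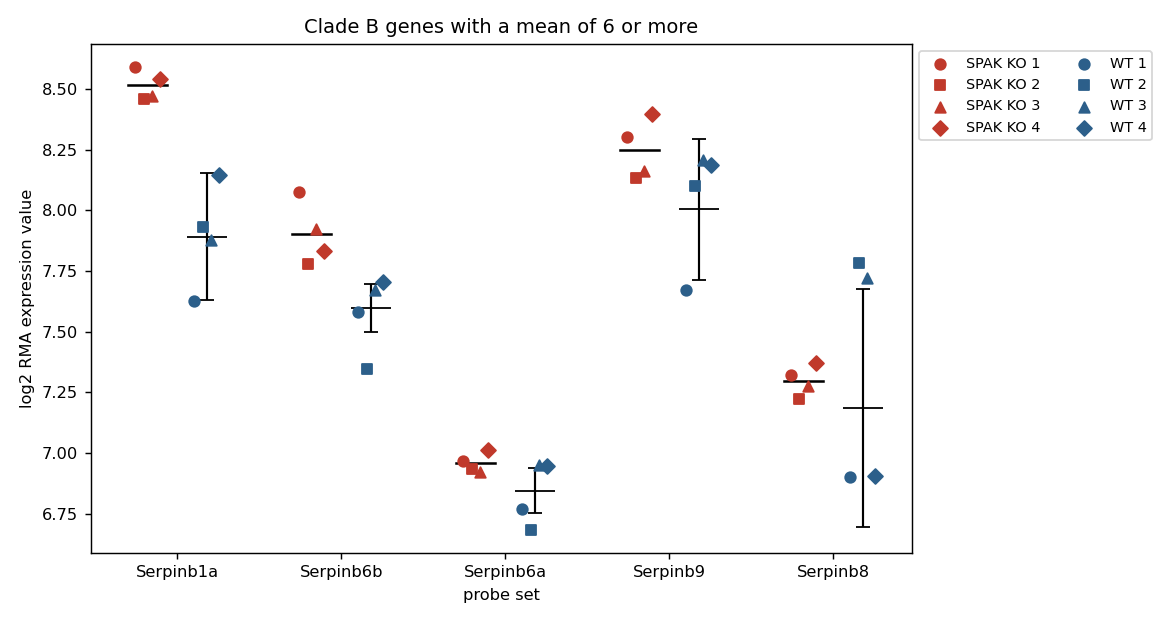
Log2 RMA expression value (vertical axis) of the 5 clade B genes with a mean of 6 or more, SPAK KO arrays in red on the left and WT arrays in blue on the right of each. Bars are the mean of the 4 SPAK KO arrays and the WT mean ± SD (n = 3, WT 2 and WT 3 counted once). The groups are apart for Serpinb1a and, by 0.07, for Serpinb6b, and overlap for the others.

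The 9 genes of clades C to I, which hold the inhibitors of clotting, clot breakdown and complement, had 0 calls. Over all genes, 2.08% were called. An unadjusted limma p under 0.05 was found for 2 of the 9, near the 19.1% of all genes that had one. Serpinf2, which encodes the plasmin inhibitor α2-antiplasmin, read 12.01, 11.96, 11.98 and 11.90 on the SPAK KO arrays, against 12.06, 11.81, 11.84 and 11.995 on the WT arrays. The groups overlapped, and the 95% interval of the difference ran from -0.11 to 0.18 (0.04 ± 0.06, SE; limma adjusted p = 0.784). Serping1, the inhibitor of complement C1 and plasma kallikrein, read 9.46 to 9.58 on the SPAK KO arrays and 9.49 to 9.70 on the WT arrays, and its difference was -0.06 ± 0.06 (SE), with an interval of -0.19 to 0.07. Serpinf1, the pigment epithelium-derived factor, differed by 0.03 ± 0.09 (SE), with an interval of -0.16 to 0.22.

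Serpinc1 is antithrombin, the heparin-dependent inhibitor of thrombin. It read 6.36, 6.09, 6.19 and 6.19 on the SPAK KO arrays, against 6.03, 6.42, 6.53 and 6.46 on the WT arrays. WT 1 was the lowest array of all, and the difference of -0.15 ± 0.10 (SE) did not pass (limma adjusted p = 0.454). Serpind1, heparin cofactor II, differed by -0.09 ± 0.05 and Serpini1, the inhibitor of tissue plasminogen activator named neuroserpin, by 0.15 ± 0.10 (SE). Serpine3 differed by -0.12 ± 0.05 (SE; limma adjusted p = 0.246).

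Serpinh1, the collagen chaperone HSP47 of the endoplasmic reticulum, read 7.94, 7.81, 7.85 and 7.73 on the SPAK KO arrays, against 7.93, 8.05, 7.98 and 7.93 on the WT arrays. SPAK KO 1 lay at the level of the lower WT arrays. The difference was -0.14 ± 0.06 (SE; limma adjusted p = 0.223). Of 15 collagens and folding partners measured 0 were called, where 2.08% of all genes were, and their median difference was -0.01. Plod2, a lysyl hydroxylase of collagen, and Col4a1, a basement membrane collagen chain, had the smallest p, with 0.21 ± 0.05 (limma adjusted p = 0.0687) and -0.12 ± 0.05 (adjusted p = 0.222).

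Proteases gave 3 calls among 37 measured, all higher, where 2.08% of all genes were called in either direction and 1.39% were called higher. Mme, the membrane metallopeptidase neprilysin, read 10.00, 10.06, 10.11 and 10.19 on the SPAK KO arrays, against 9.63, 9.502, 9.56 and 9.79 on the WT arrays (0.47 ± 0.07, SE; limma adjusted p = 0.00949). Neprilysin is a zinc enzyme and no typical target of serpins. Plat, the tissue plasminogen activator, read 8.68, 8.55, 8.61 and 8.57 on the SPAK KO arrays, against 8.38, 8.25, 8.39 and 8.22 on the WT arrays (0.29 ± 0.06, SE; adjusted p = 0.032). St14, the epithelial membrane protease matriptase, was higher by 0.29 ± 0.06 (SE; limma adjusted p = 0.0439). Mme passed whichever array was left out. Plat lost its call without any 1 of the SPAK KO arrays or WT 2 (adjusted p up to 0.108), and St14 without any array but WT 4 (up to 0.136). The list's median was -0.03. Of 13 receptors and cofactors 0 were called, where 2.08% of all genes were. The smallest p belonged to the heparan sulfate proteoglycan gene Sdc1 (0.24 ± 0.08, SE; limma adjusted p = 0.152) and the heparan sulfate sulfotransferase gene Hs6st1 (0.13 ± 0.06; adjusted p = 0.297).

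Protease inhibitors of other families gave 3 calls among 24, all higher, where 1.39% of all genes were called higher. The list median was 0.05. Wfdc2, a small secreted protein with whey acidic protein domains, read 10.08, 9.99, 9.97 and 10.03 on the SPAK KO arrays, against 9.43, 9.16, 9.33 and 9.49 on the WT arrays. Its groups did not overlap, and the difference was 0.66 ± 0.07 (SE, 1.58-fold; limma adjusted p = 0.00234). Spink8, of the Kazal type, was higher by 0.60 ± 0.08 (SE; adjusted p = 0.00713). Itih2, a heavy chain of the inter-α-trypsin inhibitor, was higher by 0.36 ± 0.07 (SE; adjusted p = 0.0411) and lost its call without any array but SPAK KO 2 or WT 3 (up to 0.128).

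Of 19 acute phase and hepatocyte genes 3 were called, all higher, where 1.39% of all genes were: the fibrinogen chain genes Fgg (0.62 ± 0.08, SE; limma adjusted p = 0.00447) and Fga (0.32 ± 0.06; adjusted p = 0.0229) and the transferrin gene Trf (0.25 ± 0.06; adjusted p = 0.0484). Fgg passed whichever array was left out. Fga lost its call without any 1 of the SPAK KO arrays or WT 2 (adjusted p up to 0.0725), and Trf without any array but WT 1 (up to 0.139). The list's mean level per array was 6.46 to 6.53 in SPAK KO and 6.31 to 6.37 in WT, and its median difference was 0.12. Ahsg (fetuin-A) and Mug1 (murinoglobulin) lay the other way, with every SPAK KO array below every WT array, as for 5.71% of all genes. They did not pass (-0.31 ± 0.09 and -0.32 ± 0.08, SE, limma adjusted p = 0.102 and 0.0757), and both had a mean under 6. Of the genes not called, Alb, Apoa2 and Apoc3 had every SPAK KO array above every WT array, as for 6.9% of all genes. In the list, 13 of 19 differences were above 0. Ahsg, Mug1, Alb, Apoa2 and Apoc3 were named after their values were seen. Among markers of cells in or near the cortex, 1 of 17 proximal tubule genes was higher (Slc7a12) and 2 were lower (Acsm3, Cyp4a12a). Their mean level was 11.77 to 11.79 in SPAK KO and 11.71 to 11.74 in WT. That mean includes Slc7a12, which differed by 1.33 ± 0.13 (SE), Acsm3 (-0.425 ± 0.05) and Cyp4a12a (-0.64 ± 0.09). The median difference of the 17 was 0.04, with 10 above 0. Of 15 immune cell genes 1 was lower (Cd3e), with a mean level of 5.77 to 5.83 in SPAK KO and 5.85 to 5.88 in WT. The part of these cells in the Serpin differences was not tested. The lists for podocytes, endothelium, stroma, red cells and platelets, and adrenal gland had 0 calls each. Perirenal fat had 1 of 6 higher (Retn), and the distal tubule and collecting duct list had 4 higher and 3 lower of 14. For all these marker lists, the shares over all genes were 1.39% called higher and 0.682% called lower.

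**Figure D5:**
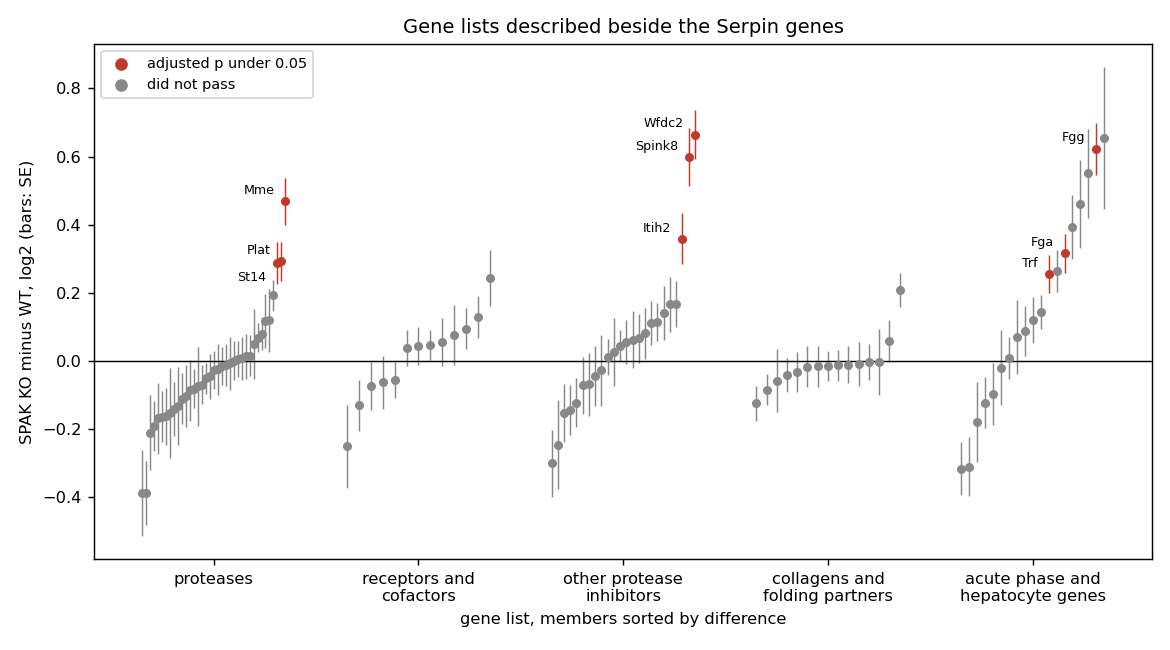
SPAK KO minus WT difference on the log2 scale with its SE (vertical axis) for the measured members of 5 gene lists, sorted within each list. Red genes had an adjusted p under 0.05 and are named, 3 each among proteases, other protease inhibitors and acute phase or hepatocyte genes, all above 0, and 0 among receptors and cofactors or collagens and folding partners.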

How the data were processed

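The deposited table holds log2 expression values of 8 arrays. The submitters' processing notes name RMA and Affymetrix Expression Console as the tools the authors used; the version and genome build are not given in the sources used here. RMA corrects background, normalizes between arrays and combines the probes of a set. GEO's platform annotation named the probe sets: 21789 of 35556 had 1 symbol, 1621 several and 12146 none. Per gene, the probe set with the highest mean was kept. Genotype was fitted with limma 3.58.1 (lmFit, eBayes) in R 4.3.3 over all genes and, for probe sets with several symbols, over all probe sets. The number of arrays limits the precision. Members and lists were chosen with earlier results of these data known. Genes named are those called, the Serpina1 relatives, a fixed list of family members, those with an unadjusted p under 0.05 and the extremes; of other lists, the called genes or else the 2 with the smallest p. Alternatives were scaling, filters, moderation, probe set choice, agreeing arrays, a block for replicate number and leaving out each array. Promoters come from RefSeq (GRCm38.p6), which held all 6 of Serpina1a to Serpina1f.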

Additional observations from a re-analysis of the deposited data

Results flagged for a closer look

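In 50 groups of 4 arrays tested for 1 outlying array, 2 were singled out, and chance gives about 1 in 20. For Serpina3n, SPAK KO 4 read 4.38 and the other SPAK KO arrays 4.58 to 4.61, a gap of 0.854 of the group's range. For Serpine3, SPAK KO 2 read 5.67 and the others 5.62, a gap of 0.859 of the range, although that range was only 0.05. Neither gene was called.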

How the results depend on the processing

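Serpina1d, Serpina1f and Serpinb1a kept their direction and their call in 20 of 21 alternatives. The exception counted agreeing arrays once, which leaves 1 SPAK KO sample: 0 Serpin genes, 0 shared Serpina1 probe sets and 0 of all genes passed, with 618 genes at an unadjusted p under 0.05. The number of Serpin genes called lower was 0 in every alternative run, and leaving out 1 array gave 3 called higher each time. With each array centred on the median of all probe sets, a choice made after seeing the data, Serpinb6b passed as well (adjusted p = 0.0445), and 673 genes were higher and 88 lower, 761 in all, instead of 278 and 136, 414 in all. The labels do not say whether replicate numbers mark a shared litter or day, and same-numbered arrays did not deviate together (correlations of -0.05, 0.08, -0.13 and 0.13). With the replicate block 174 genes were called, the same 3 Serpin genes higher, and 0 of the 2 shared Serpina1 probe sets. With WT 2 and WT 3 averaged, 253 genes and 1 shared probe set passed. Leaving out means under 6 gave 664 genes and moved the family's median difference to 0.0797, since it keeps 12 members. Moderation with a trend gave 764 genes and the fit of every probe set 162. Leaving out 1 array gave 156 to 625 genes and 0 to 2 shared probe sets, the 0 without any 1 of the SPAK KO arrays.

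Some differences near 0 changed sign, and none of these passed either way. With WT 2 and WT 3 averaged, and with agreeing arrays counted once, Serpina5 became -0.0098, Serpinf1 -0.0093 and Serpinb8 0.111. Centring on all probe sets made Serpina6 0.0001, Serpina7 0.0019 and Serpinb8 0.0287. The shared Serpinb9 probe set 10404479 became 0.0432 with arrays centred on their median, 0.012 with quantile normalization and 0.0178 with cyclic loess. Leaving out 1 array gave ranges of -0.029 to 0.0489 for Serpina5, -0.095 to 0.0098 for Serpina7, -0.0366 to 0.104 for Serpinf1, -0.0014 to 0.0813 for Serpinf2, -0.172 to 0.122 for Serpinb8, -0.0056 to 0.0786 for probe set 10404472 and -0.0462 to 0.0222 for probe set 10404479. The cause was not tested.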

Other observations

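Serpinb8, an inhibitor of furin, was picked after its values were seen. It read 7.32, 7.22, 7.27 and 7.37 on SPAK KO arrays 1 to 4, against 6.90, 7.78, 7.72 and 6.91 on WT arrays 1 to 4. The SPAK KO arrays spanned 0.15 and lay inside the WT spread of 0.88. WT 2 and WT 3 were the high WT arrays here, whereas they were the low ones in all 5 probe sets of the Serpina1 relatives.

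Liver-type genes that were not called lay in both directions. Alb (albumin) differed by 0.55 ± 0.13, Apob (the apolipoprotein of very low density lipoprotein) by 0.65 ± 0.21 and Ttr (transthyretin) by 0.46 ± 0.13 (SE), and Ahsg and Mug1 by -0.31 ± 0.09 and -0.32 ± 0.08. The acute phase genes Saa1, Saa2 and Hp differed by -0.10 ± 0.09, -0.18 ± 0.12 and 0.12 ± 0.07, and Fgb, the third fibrinogen chain gene, by -0.02 ± 0.11. The apolipoprotein genes Apoc3 and Apoh differed by 0.26 ± 0.06 and 0.39 ± 0.09 (SE). Their levels were unequal. The mean over the 8 arrays was 8.51 for Alb, 9.26 for Apob, 11.86 for Ttr, 8.34 for Apoc3 and 6.79 for Apoh. It was only 4.31 for Ahsg, 4.53 for Mug1, 3.21 for Saa1 and 3.49 for Saa2. These genes were named after their values were seen.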
